A study of Mus musculus with 7 samples.

Results

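Fetal livers of mice in which the Taf10 gene was targeted in erythroid cells were compared with livers that carried no Cre recombinase, over all genes with enough reads to test. The libraries were chosen by the genotype in their labels, which gave 2 TAF10KO and 2 WT livers, 4 of the 7 libraries of the series. All embryos were C57BL/6 mice at stage E12.5, and total RNA came from a suspension of single liver cells. By their titles the TAF10KO embryos had lox alleles on both chromosomes and EpoCre. The design text describes them instead as lox/KO with EpoR-Cre, a recombinase under the control of the erythropoietin receptor gene. That driver acts in erythroid cells, whereas the RNA came from all liver cells. The WT embryos also had lox alleles on both chromosomes and lacked the recombinase, so the comparison does not separate the deletion from the presence of Cre. The other 3 libraries, TAF10HET, all carried EpoCre, as lox/wt in replicate 1 and wt/ko in replicates 2 and 3. They enter here in the estimates of the date effect and of the spread, which had 3 residual degrees of freedom with all 7 libraries and 1 with only the 4 compared, and as a reference. The titles number the livers separately, and nothing further states how the embryos are related, so p-values measure only the spread between these samples.

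TAF10 belongs to TFIID, which places RNA polymerase II at promoters, and to the SAGA coactivator, which modifies chromatin. The fetal liver at this stage is the main site where definitive red cells form, amid hepatoblasts, vessels, macrophages and mesenchyme. When oxygen is short, prolyl hydroxylases of the EGLN family stop marking hypoxia-inducible factors for destruction, and these factors raise genes of glucose breakdown, vessel growth and reduced mitochondrial use.

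Counts assigned to genes ran from 22821489 to 43401474 over the 4 libraries. Every title holds a date-like code, and replicate 1 of both groups had the first code and replicate 2 the second. TAF10KO replicate 2 was male by its Xist count and the other 3 embryos were female. Markers of the labelled tissue were present in each library, with summed levels of 31655 to 56798 CPM (counts scaled to a common library total) for 20 definitive erythroid genes and 13126 to 21090 CPM for 16 hepatoblast genes. Summed levels were 11.8 to 23.7 CPM for 10 neural genes and 7.42 to 13.5 CPM for 9 cardiac muscle genes.

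Taf10 itself, on chromosome 7, measured 37.8 CPM in TAF10KO replicate 1 and 43.8 CPM in replicate 2, and 72.0 and 96.5 CPM in the 2 WT livers. The groups did not overlap, and the transcript was not lost in either TAF10KO liver. The log2 difference was -1.04 (SE 0.168, adjusted p = 0.0542 by edgeR), -0.93 on the first date code and -1.14 on the second, so it missed the threshold of 0.05. The counts cover the whole gene and all liver cells, so they do not measure how far the deletion went, and fewer cells of a type and less RNA per cell cannot be told apart in any result given here. Epor, the receptor gene that the driver is named for, stood at 83.1 and 99.2 CPM in TAF10KO and 158 and 239 CPM in WT (log2 -1.11, adjusted p = 0.0618). The TAF10HET livers, which all carried EpoCre, stood at 156 CPM on the first date code, close to WT. On the second they stood at 139 and 125 CPM, between WT and TAF10KO.

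Of 15800 genes tested, 96 were called at an adjusted p under 0.05, which is 0.608% of them. In this fit the calls leaned upwards, with 76 genes higher (0.481%) and 20 lower (0.127%) in TAF10KO, so 79.2% of calls were higher. That share was 55.0% with DESeq2 and 60.0% with only the 4 libraries compared. At an unadjusted p under 0.05 by edgeR, 1550 genes were higher and 1280 lower. Glycolysis and other genes known to answer to low oxygen held 23 of the 76 rises. The other 53 included amino acid transporters, metallothioneins, ferritin and vessel genes. The falls were led by the steroid enzyme gene Hsd3b6 and by an embryonic globin. The rises were also larger, with 41 genes at a log2 difference of 1 or more against 6 falls at -1 or beyond, while the median over all genes tested was 0.028. The 96 genes kept 1 direction on both date codes. For 88 of them the TAF10KO and WT libraries did not overlap at all, which held for 29.8% of all genes tested. The fit used those same 4 libraries, so the shared direction and this count describe the calls and add no evidence for them. The same holds wherever called genes are said below to keep their direction, to separate the groups or not to overlap.

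The calls rest on the date code and on both WT livers, and their number also depended on which TAF10HET livers shared in the estimate of the spread. With group as the only term 0 genes were called by edgeR, with 729 at an unadjusted p under 0.05 and the smallest adjusted p at 0.714. Without WT replicate 1 or WT replicate 2 the count was also 0, with 1553 and 979 genes at an unadjusted p under 0.05, and the lone WT liver was then assumed to vary like the others. The counts were 26 higher and 5 lower without TAF10HET replicate 2 and 12 and 1 without TAF10HET replicate 3, against 332 and 221 with only the 4 libraries compared. All 76 and 20 genes kept their direction in those settings. All of them also stayed called with only the 4 libraries compared and without TAF10HET replicate 1.

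**Figure D1:**
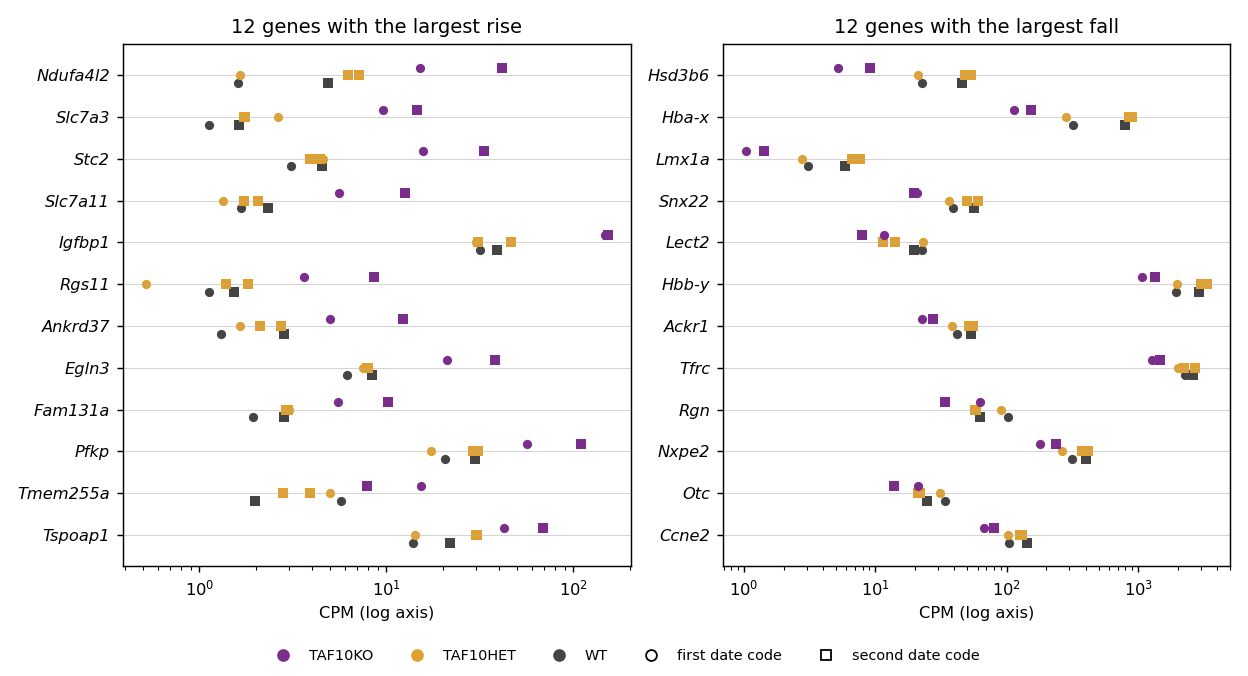
CPM on a log axis in each of the 7 libraries for the 12 genes with the largest rise (left) and the 12 with the largest fall (right) under the naming rule, with circles for the first date code and squares for the second. In each gene the TAF10KO points (purple) lie beyond the WT points (grey) and the TAF10HET points (orange) of the same date code, as they did for all 96 called genes and for 33.2% of all genes tested.

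The promoters of genes from 3 groups are shown first, because the called genes include members of families with known promoter elements. The sequences are from RefSeq on build GRCm38.p6, hold the 250 bases before the transcript start, and are written from 5′ to 3′ on the strand of the gene. Capitals mark ACGTG, the core of the element bound by hypoxia-inducible factors, or its reverse complement CACGT, which overlap in the palindrome CACGTG. Ankrd37 had ACGTG at 2 positions, the nearer 6 bases before the start, Egln3 had it once, 229 bases before, and Bnip3 had the palindrome 107 bases before.
Ankrd37 (chr8:45999851-46000100, minus strand): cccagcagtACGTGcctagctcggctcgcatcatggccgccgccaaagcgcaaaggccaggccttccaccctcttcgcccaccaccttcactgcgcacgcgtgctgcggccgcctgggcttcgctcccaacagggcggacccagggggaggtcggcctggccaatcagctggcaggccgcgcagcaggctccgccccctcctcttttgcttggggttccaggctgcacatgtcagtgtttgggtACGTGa
Egln3 (chr12:54203875-54204124, minus strand): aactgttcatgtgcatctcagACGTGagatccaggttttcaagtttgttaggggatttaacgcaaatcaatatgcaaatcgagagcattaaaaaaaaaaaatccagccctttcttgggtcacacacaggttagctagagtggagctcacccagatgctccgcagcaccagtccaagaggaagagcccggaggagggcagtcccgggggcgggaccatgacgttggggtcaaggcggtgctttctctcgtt
Bnip3 (chr7:138909507-138909756, minus strand): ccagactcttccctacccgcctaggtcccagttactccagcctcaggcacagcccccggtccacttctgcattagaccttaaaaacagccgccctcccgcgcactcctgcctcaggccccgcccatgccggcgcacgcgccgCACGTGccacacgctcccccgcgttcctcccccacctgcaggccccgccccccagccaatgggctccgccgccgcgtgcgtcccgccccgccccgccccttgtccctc

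For the cystine transporter gene Slc7a11 the capitals mark TGATGNAA, the composite element of ATF4 and C/EBP proteins, on either strand. It occurred 2 times, the nearer 47 bases before the start.
Slc7a11 (chr3:50443614-50443863, minus strand): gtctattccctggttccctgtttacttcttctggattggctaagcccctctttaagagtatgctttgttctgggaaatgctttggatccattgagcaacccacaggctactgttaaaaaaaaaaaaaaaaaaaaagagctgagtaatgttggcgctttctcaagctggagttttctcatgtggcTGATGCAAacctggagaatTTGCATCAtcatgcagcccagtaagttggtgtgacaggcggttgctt

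For the embryonic globin gene Hba-x the capitals mark GATAA, the core bound by GATA factors, and TATAAA, the letters of a TATA box, searched on the strand of the gene from 45 to 15 bases before the start. They lay 107 and 28 bases before the start.
Hba-x (chr11:32276350-32276599, plus strand): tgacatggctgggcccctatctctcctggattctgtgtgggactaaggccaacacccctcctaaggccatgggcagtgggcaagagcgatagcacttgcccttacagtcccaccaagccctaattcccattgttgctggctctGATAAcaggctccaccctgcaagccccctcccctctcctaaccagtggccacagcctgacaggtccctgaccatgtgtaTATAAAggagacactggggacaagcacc

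GATAA also occurred in the windows of Hbb-y (162 bases before the start) and Hsd3b6 (30 bases), and the window of Igfbp1 held none of the 4 motifs, which says only that these letters are not there. Over all 32851 windows of the same length, ACGTG on either strand was in 16.57%, GATAA in 22.58%, TGATGNAA in 3.452% and TATAAA in its stretch in 2.137%. A window was found for 73 of the 96 called genes (76.04%) and for 72.83% of the genes tested. Among called genes, matches were listed only for the picked genes named here. A share over the called set was not computed, so these genes cannot be set against the shares over all windows. A match is a description of the letters and not a site shown to be bound.

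Glycolysis rose along most of its length. Of 17 genes tested, 11 rose and 0 fell, which is 64.7% against 0.481% of all genes, and the median log2 difference was 0.65 against 0.028 over all genes. Pfkp, a phosphofructokinase isoform at the committed step, stood at 56.5 and 109.6 CPM in the TAF10KO livers and at 20.6 and 29.7 CPM in WT (log2 1.67, SE 0.116, adjusted p = 0.00458). Both TAF10KO livers lay above both WT livers. Aldoa, the aldolase that splits the sugar, stood at 1057 and 1582 CPM against 393 and 601 CPM (1.41). Pkm, pyruvate kinase, stood at 1098 and 1348 CPM against 466 and 521 CPM (1.30).

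The first and middle enzymes moved with them. Hk2, a hexokinase, stood at 69.3 and 87.1 CPM in TAF10KO and at 35.8 and 39.9 CPM in WT (log2 1.04). Gpi1, the phosphoglucose isomerase, rose by 1.14, Pgk1, the phosphoglycerate kinase, by 1.13, and Eno1, enolase, by 0.96. These 4 genes also separated the groups without overlap. Pgam1 (0.75), Tpi1 (0.65), Ldha, which turns pyruvate into lactate (0.61), and Pfkfb3, which makes the activator of phosphofructokinase (0.58), completed the 11. Aldoc, a further aldolase outside the list, also rose (12.2 and 9.88 CPM against 5.21 and 4.59 CPM, log2 1.17).

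Isoforms of the same step differed in their calls. Pfkm stood at 0.12 (adjusted p = 0.574) and Hk1 at 0.10 (0.82), while Pfkl stood at 0.56 (0.19), and no difference between isoforms was tested. Gapdh stood at 0.49 (0.06) and Pdk1, a kinase that inhibits pyruvate dehydrogenase, at 0.505 (0.0604). Without either WT library 0 glycolysis genes passed the test, against 7 without TAF10HET replicate 2 and 5 without TAF10HET replicate 3; the median stayed at 0.63 to 0.79 over the 7 leave-outs. Multi-copy relatives of Aldoa, Pgk1, Ldha and Gapdh in the genome make their read assignment uncertain.

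Genes outside glycolysis that are known to answer to low oxygen rose as well. Of 32 tested, 12 rose and 0 fell, which is 37.5% higher against 0.481% of all genes. The median log2 difference of the 32 genes was 0.93, 0.78 on the first date code and 0.85 on the second. Ndufa4l2, which lowers electron transport in the mitochondrion, led them (chromosome 10, 127514967 to 127517154). It stood at 15.2 and 41.8 CPM in TAF10KO and at 1.6 and 4.87 CPM in WT (log2 3.18, SE 0.176, adjusted p = 0.00314). TAF10HET livers stood at 1.66, 7.11 and 6.22 CPM, and on each date code TAF10KO lay above both other genotypes.

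The oxygen sensors themselves were among the rises. Egln3, a prolyl hydroxylase whose promoter is printed above, stood at 21.1 and 37.9 CPM in TAF10KO and at 6.12 and 8.40 CPM in WT (log2 2.00). Egln1, the main prolyl hydroxylase of most tissues, stood at 66.4 and 72.0 CPM against 33.3 and 42.8 CPM (0.87). Both genes separated the groups. The histone demethylase gene Kdm3a (0.68) and the repressor gene Bhlhe40 (1.09), both known targets of hypoxia-inducible factors, rose too. Bnip3, a receptor for the removal of mitochondria, stood at 136 and 250 CPM against 51.3 and 83.6 CPM (1.49), and Ankrd37, an ankyrin repeat protein gene, at 5.02 and 12.2 CPM against 1.31 and 2.83 CPM (2.03).

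Secreted products formed a further group. Vegfa, the growth factor of vessels, stood at 123 and 132 CPM in TAF10KO and at 58.4 and 47.6 CPM in WT (log2 1.27, adjusted p = 0.00623). Igfbp1, which binds insulin-like growth factors, stood at 147 and 152 CPM against 31.7 and 38.8 CPM (2.10). Stc2, a stanniocalcin, stood at 15.7 and 33.1 CPM against 3.10 and 4.55 CPM (2.63). All 3 separated the groups. Ero1l (1.01) and P4ha1 (0.99), oxidising enzymes of the secretory pathway, rose with them.

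Several known oxygen-responsive genes missed the threshold. Slc16a3, the lactate exporter, stood at 1.13 (adjusted p = 0.0533), P4ha2 at 1.41 (0.0596), Adm at 1.32 (0.148) and Ddit4 at 2.20 (0.164). Car9, a carbonic anhydrase often used as a hypoxia marker, stood at 1.82 and 1.45 CPM in TAF10KO and at 1.89 and 0.93 CPM in WT (0.24, adjusted p = 0.775), and its groups overlapped. Bnip3l, the mitophagy receptor of maturing red cells, stood at -0.06 (0.835) and Selenbp2 at -1.21 (0.0788). The glucose transporter gene Slc2a1, which is abundant in erythroid cells, stood at 0.39 (0.263), while Slc2a3 rose from 79.2 and 89.4 CPM to 119 and 193 CPM (0.85). Of these 32 genes 0 passed without either WT library, 9 without TAF10HET replicate 2 and 4 without TAF10HET replicate 3.

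**Figure D2:**
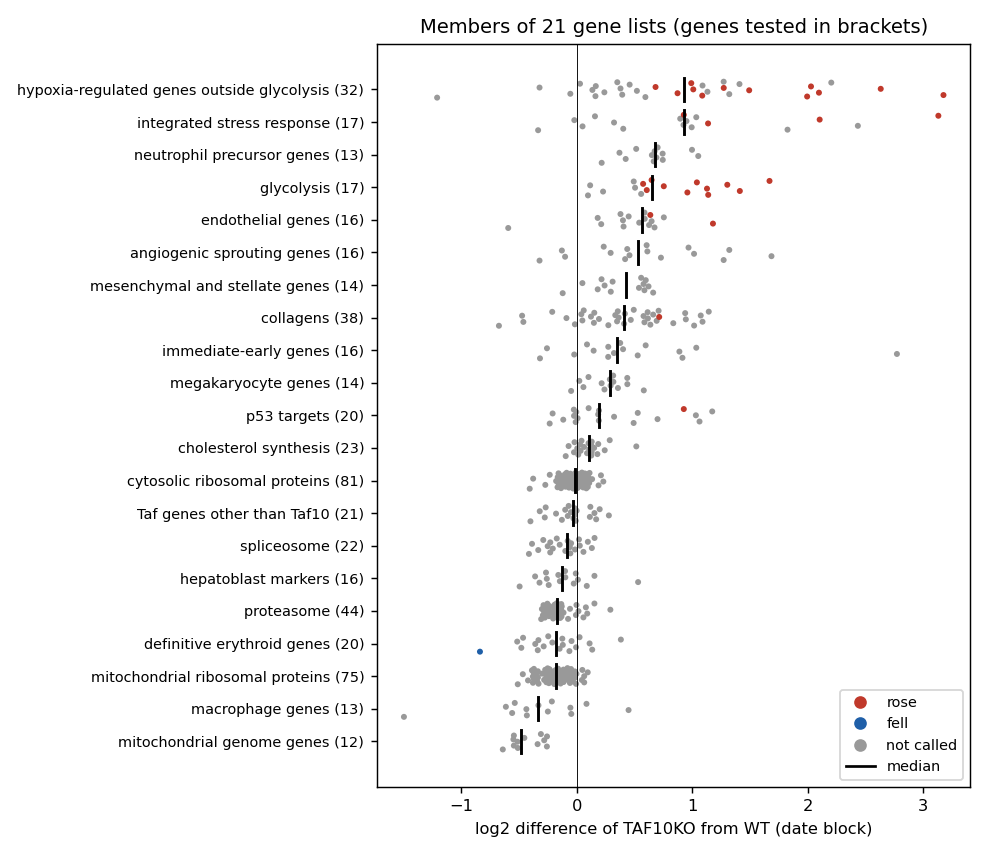
Log2 difference of TAF10KO from WT for each tested member of 21 gene lists, with red points for genes that rose, blue for genes that fell, grey for genes not called and a black bar for the median. Red points lie mainly in the glycolysis and hypoxia lists, with 11 and 12 genes, and all 12 mitochondrial genome genes lie below 0 without a call.

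Genes of amino acid supply rose in a smaller set. In the integrated stress response, which cells use when amino acids or protein folding fail, 4 of 17 genes rose and 0 fell. That is 23.5% higher against 0.481% of all genes, and the median log2 difference was 0.93. Slc7a3, a carrier of arginine and lysine, stood at 9.56 and 14.6 CPM in TAF10KO and at 1.13 and 1.62 CPM in WT (3.13, SE 0.318, adjusted p = 0.0129). Slc7a11, which imports cystine and whose promoter is printed above, stood at 5.57 and 12.6 CPM against 1.68 and 2.32 CPM (2.10, adjusted p = 0.0204). Both separated the groups. Vldlr, a lipoprotein receptor (1.14), and Sesn2, a leucine sensor that restrains growth signalling (0.93), also rose.

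The regulators of that response did not pass the test. Atf4, its central factor, stood at 266 and 451 CPM in TAF10KO and at 307 and 407 CPM in WT (-0.02, adjusted p = 0.955), with overlap. Trib3 stood at 30.3 and 108 CPM against 8.31 and 15 CPM (2.43, adjusted p = 0.109), and Nupr1 at 1.83 (0.0756). Among 15 genes of serine and one-carbon synthesis, 1 rose, Mthfd2 of the mitochondrial folate cycle (0.54, adjusted p = 0.04996), and WT replicate 2 (229.3 CPM) overlapped TAF10KO replicate 1 (229.2 CPM). Asns, asparagine synthetase, stood at 0.14 (0.487). Of 270 solute carrier genes tested, 3 rose, namely Slc7a3, Slc7a11 and Slc2a3, which is 1.11% against 0.481% of all genes. The count in the stress response list was 0 without WT replicate 1, WT replicate 2 or TAF10HET replicate 3 and 2 without TAF10HET replicate 2.

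Genes of iron and metal handling moved in both directions. Tfrc, the transferrin receptor that takes up iron, fell from 2290 and 2636 CPM in WT to 1280 and 1476 CPM in TAF10KO (log2 -0.84, SE 0.123, adjusted p = 0.0438). Ftl1, the ferritin light chain that stores it, rose from 1222 and 1616 CPM to 2326 and 3489 CPM (1.02, adjusted p = 0.041). Neither pair of groups overlapped. The metallothionein genes, which bind zinc and copper and lie side by side on chromosome 8, rose together. Mt2 stood at 1018 and 1606 CPM against 455 and 727 CPM (1.15), and Mt1 at 947 and 1141 CPM against 382 and 653 CPM (1.06). Erfe, the hormone by which erythroblasts release iron stores, stood at 21.6 and 43.3 CPM against 14.1 and 21.2 CPM (0.83, adjusted p = 0.04996). For Mt2, Mt1 and Ftl1 the TAF10HET livers lay between WT and TAF10KO of the same date code. They stood at 672, 909 and 862 CPM for Mt2, 503, 843 and 782 CPM for Mt1 and 1253, 2078 and 2454 CPM for Ftl1. For Tfrc and Erfe they lay on both sides of WT. Like every called gene, the genes called here lost their calls without either WT library. Without WT replicate 2 the log2 difference was -0.86 for Tfrc and 1.19 for Mt1.

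Fgf23, the hormone that lowers blood phosphate, was counted 25 and 58 times in TAF10KO and 1 and 0 times in WT, with 2, 3 and 1 reads in TAF10HET. It was called (adjusted p = 0.0459), lay under the level at which genes were named by rule, and is given because its counts stood apart. The fitted log2 difference at such counts depends on the prior count and is not given. Hecw1, a ubiquitin ligase gene, was also low, at 2.17 and 5.17 CPM against 0.22 and 0.65 CPM.

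The other large rises had no common list. Rgs11, a regulator of G protein signalling, stood at 3.64 and 8.54 CPM in TAF10KO and at 1.13 and 1.53 CPM in WT (log2 2.08). Tspoap1, whose product binds the TSPO protein of mitochondria, stood at 42.7 and 68.5 CPM against 13.8 and 21.9 CPM (1.64, adjusted p = 0.00458). Fam131a rose by 1.70 and Tmem255a by 1.64. Each of these 4 separated the groups. Among rises outside the naming rule, chosen after their values were seen, were Ampd2, an AMP deaminase (216 and 378 CPM against 98.5 and 185 CPM, 1.09), Ak4, a mitochondrial adenylate kinase (0.79), and Myh7b, a myosin heavy chain (1.16). Foxh1, a factor of Nodal signalling (1.48), Kdm6b, a demethylase of histone H3 (0.81), Hdac5 (0.52), and Sqstm1, the autophagy receptor p62 (0.53), are further examples.

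The falls were fewer and of several kinds. Hsd3b6, of the steroid dehydrogenase family, stood at 5.24 and 9.12 CPM in TAF10KO and at 22.8 and 46.0 CPM in WT (log2 -2.24, SE 0.137, adjusted p = 0.00334). TAF10HET livers stood at 21.3, 48.2 and 53.6 CPM, close to WT of the same date code. Hba-x, the embryonic zeta globin whose promoter is printed above, stood at 113 and 153 CPM against 317 and 802 CPM (-1.90, SE 0.275, adjusted p = 0.04996). Hbb-y, the embryonic epsilon-like globin of chromosome 7, stood at 1072 and 1346 CPM against 1936 and 2902 CPM (-0.98). Lmx1a, a homeobox factor gene at low level, stood at 1.03 and 1.42 CPM against 3.10 and 5.89 CPM (-1.83). The groups did not overlap in any of these 4 genes. Over the 7 leave-outs Hsd3b6 ran from -2.40 to -2.09, was called in 5 and had its highest adjusted p, 0.104, without WT replicate 2, while Hba-x was called in 3, with adjusted p up to 0.637.

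Surface proteins of red cells were among the other falls. Ackr1, the Duffy chemokine receptor, stood at 22.8 and 27.6 CPM in TAF10KO and at 41.8 and 53.7 CPM in WT (log2 -0.91, adjusted p = 0.0129). Art4, which carries the Dombrock blood group in people, fell by 0.60. Among other falls, Nxpe2 stood at 179 and 239 CPM against 314 and 404 CPM (-0.78), Snx22, a sorting nexin, at 20.9 and 19.8 CPM against 39.2 and 56.6 CPM (-1.20), and Apol8 at -0.69. Some falls were in genes of hepatocytes, picked after their values were seen. Of 16 hepatoblast markers (median -0.12) and of 22 complement and coagulation genes 0 were called, against 0.608% of all genes. Lect2, a secreted liver protein, stood at 11.6 and 7.90 CPM against 22.8 and 19.7 CPM (-1.15), Rgn, regucalcin, fell by 0.79 and Otc, of the urea cycle, by 0.76. Ugt2b34, a glucuronosyltransferase, fell by 0.54, with WT replicate 2 (85.2 CPM) below TAF10KO replicate 1 (87.2 CPM). Cyclin E2 (Ccne2, -0.73) and Pclaf, which binds the PCNA clamp (-0.55), also fell. Of 20 nucleotide synthesis genes 0 were called, against the same share of all genes.

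Most erythroid genes missed the test, where only 0.608% of all genes were called in either direction. Among 20 definitive erythroid genes 1 fell, Tfrc, against 0.127% of all genes. On both date codes 13 were lower and 1 higher, against 30.4% and 34.3% of all genes tested. Their median log2 difference was -0.18, -0.07 on the first date code and -0.27 on the second. It was -0.33 without TAF10KO replicate 1 and -0.04 without TAF10KO replicate 2. Gata1, the leading erythroid factor, stood at 186 and 254 CPM in TAF10KO and at 193 and 291 CPM in WT (-0.13, adjusted p = 0.487). Klf1 stood at -0.25 (0.452) and Alas2, the first enzyme of haem synthesis in red cells, at -0.48 (0.123). The summed level of the list was 31655 and 43808 CPM in TAF10KO against 37499 and 56798 CPM in WT, lower on each date code. The part of this difference in the called falls was not tested.

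Vessel genes stood higher in TAF10KO. Of 16 endothelial genes, 2 rose and 0 fell, against 0.481% of all genes higher, and the median log2 difference was 0.56. On both date codes 15 were higher, as were 34.3% of all genes tested. Flt1, a receptor for VEGF, stood at 42.1 and 25.9 CPM against 19.3 and 10.9 CPM (1.18, adjusted p = 0.0244), and Pecam1 at 47.9 and 33.8 CPM against 32.9 and 20.3 CPM (0.64). Both genes were higher on the first date code in both genotypes. Kdr, the main VEGF receptor, stood at 0.59 (0.053), and Lyve1 of sinusoids at -0.59 (0.202). Fabp4, found in endothelium and fat cells, rose by 1.54. Col4a1, of basement membranes, rose by 0.71 and was the only collagen of 38 to pass, with WT replicate 1 (115 CPM) above TAF10KO replicate 2 (72.6 CPM). The summed endothelial level was 807 and 420 CPM in TAF10KO against 598 and 317 CPM in WT, and its part in these rises and in that of Vegfa was not tested. The endothelial count was 0 without either WT replicate or TAF10HET replicate 3 and 1 without TAF10HET replicate 2.

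Lists of other cell types had 0 called genes by edgeR, where 0.608% of all genes were called. The 13 neutrophil precursor genes had a median log2 difference of 0.67 and a summed level of 515 and 828 CPM against 405 and 497 CPM, with Mpo at 0.67 (adjusted p = 0.053). The 13 macrophage genes tested had a median of -0.33, and their sums of 456 and 359 CPM against 518 and 345 CPM changed order between date codes. The 14 mesenchymal genes had a median of 0.42, which was 0.98 without TAF10KO replicate 1 and -0.04 without TAF10KO replicate 2. Their sums were further apart between date codes than between genotypes. They were 2017 CPM in TAF10KO and 1741 CPM in WT on the first code and 518 and 410 CPM on the second, higher in TAF10KO on each. TAF10HET replicate 1, at 2901 CPM, lay above both on the first code. Megakaryocyte sums were 1045 and 1241 CPM against 976 and 897 CPM. The part of these cell types in the 96 calls was not tested.

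**Figure D3:**
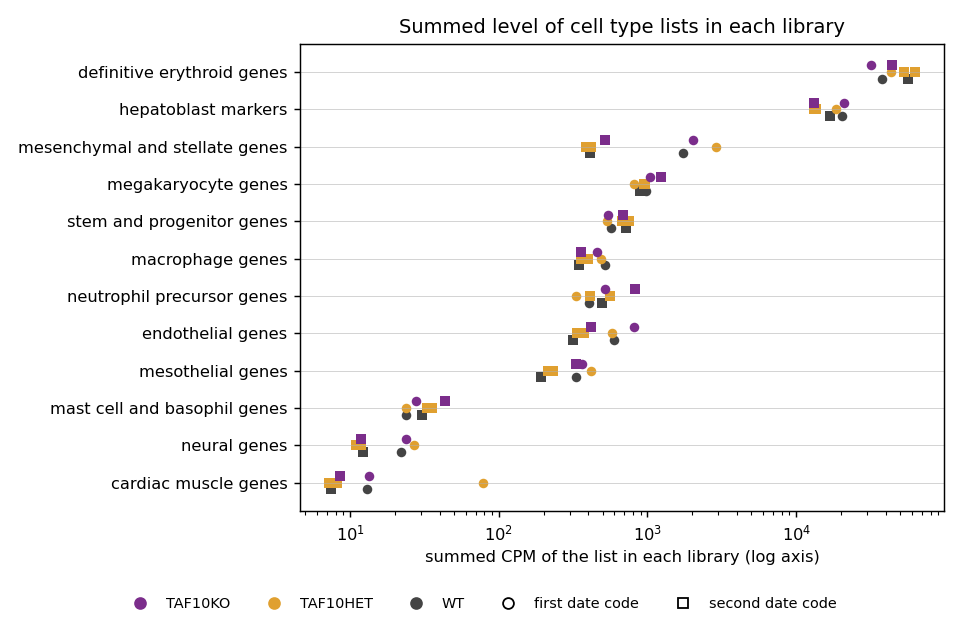
Summed CPM of 12 cell type lists in each library on a log axis, coloured by genotype and shaped by date code. Mesenchymal sums lie at 1741 to 2901 CPM on the first date code and 384 to 518 CPM on the second. Mesenchymal, endothelial and neutrophil sums of TAF10KO lie above WT on each code.

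Mitochondrial genes gave a small shift with 0 calls, where 0.608% of all genes were called. All 12 tested genes of the mitochondrial genome were lower on both date codes, as were 30.4% of all genes tested, with a median log2 difference of -0.48. The most abundant, mt-Co1, a subunit of cytochrome oxidase, stood at 8450 and 11449.6 CPM in TAF10KO and at 10458 and 13238 CPM in WT (-0.26, adjusted p = 0.284), and its groups overlapped. The nuclear genes for mitochondrial ribosomal proteins had a median of -0.18, with 55 of 75 lower on both codes, and the proteasome of -0.17, with 35 of 44 lower. Transcripts of the mitochondrial genome share 1 origin and do not vary independently. Cytosolic ribosomal proteins had a median of -0.02, with 14 of 81 higher and 20 lower on both codes.

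Among 21 other Taf genes the median log2 difference was -0.03, with 0 called by edgeR, where 0.608% of all genes were called. At that share, 0 calls in a list of this size says little about the partners of TAF10. The lowest was Taf7 at -0.40 (29.7 and 27.7 CPM against 37.6 and 38.1 CPM, adjusted p = 0.0936), and the most abundant, Taf15, stood at 0.11 (0.631). Genes of the spliceosome (median -0.09), Mediator (-0.02), cholesterol synthesis (0.10) and the tricarboxylic acid cycle (-0.06) also had 0 called members.

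Calls were more frequent at higher expression, from 0.0949% of genes in the lowest of 5 equal groups by mean level to 1.11% in the highest. Protein-coding genes held 74 of the rises and 19 of the falls among 14077 tested, so 0.661% were called, near the 0.608% of all genes. Chromosome 11 held 13 rises and 2 falls among 1312 genes (1.14% called) and chromosome 7 held 11 and 1 among 1169 (1.03%). The shares of chromosomes X (1.09%) and 6 (1.03%) were alike. Within 10 Mb of Epor, the gene the Cre driver is named for, 0 of 129 genes were called by edgeR, and 32.6% did not overlap between groups against 29.8% of all genes. Within 10 Mb of Taf10, 1 of 164 genes rose, Gab2, and 1 fell, Hbb-y, where 0.608% of all genes were called in either direction, and 37.2% did not overlap. Chromosome X held 3 rises (Pgk1, Slc7a3, Tmem255a) and 3 falls (Rgn, Otc, Tceal8). All 96 genes stayed called in their direction with embryo sex as a term, to which TAF10HET replicate 1, also male, contributed. That fit called 1491 genes higher and 1234 lower, so keeping the 96 among so many says little about embryo sex.

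The pairs of livers on the 2 date codes were compared directly, since they share no library. Over 15800 genes the TAF10KO minus WT differences on the first and second codes correlated at Pearson 0.32 and Spearman 0.38, and 64.7% had the same sign. Genes are not independent replicates. On both codes 113 genes (0.715%) were at least 2-fold higher and 63 (0.399%) at least 2-fold lower, while 19 (0.12%) passed 2-fold in opposite directions. The correlation was 0.25 in the lowest of the 5 groups by level and 0.46 in the middle group.

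**Figure D4:**
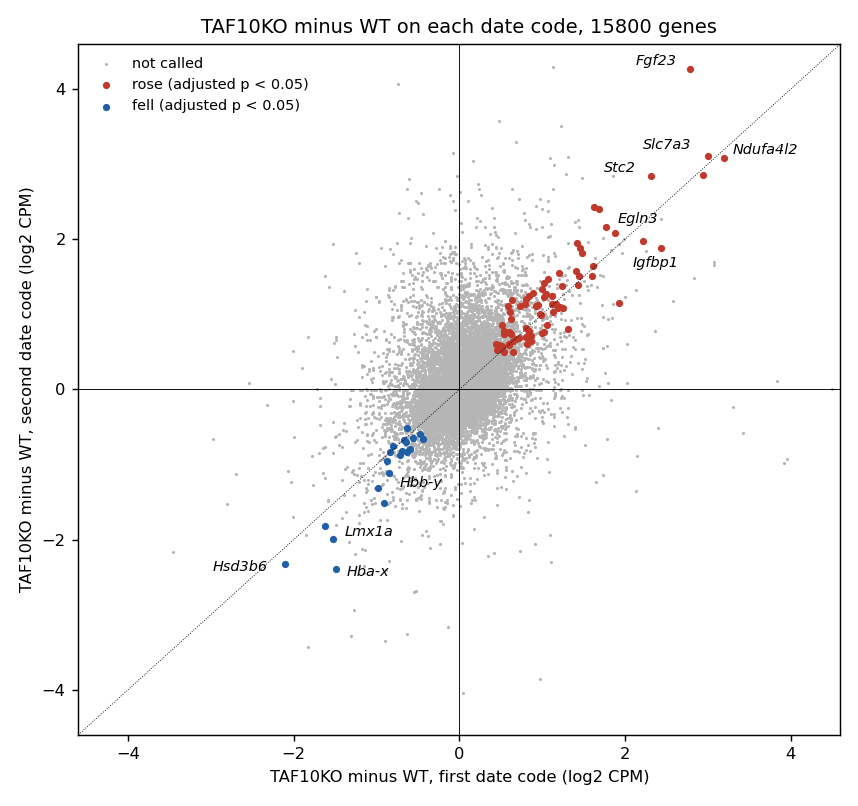
TAF10KO minus WT on the first date code (horizontal) and second date code (vertical) in log2 CPM for 15800 genes, with rises in red, falls in blue and genes not called in grey; 16 genes lie outside the axes. The 96 called genes lie near the dotted line of equal differences, in the upper right or lower left quadrant.

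An edgeR interaction term of TAF10KO with date code passed the threshold in 181 genes (1.15%), 70 with a larger and 111 with a smaller difference on the second code, and 1 of the 96 called genes, Hba-x, was among them. Each genotype had 1 liver on each code here, so the 1 residual degree of freedom came from TAF10HET replicates 2 and 3 alone. TAF10KO and WT were assumed to vary like those livers, and the term describes 4 livers and not the genotypes in general. TAF10KO replicate 2 was also the only male of the 4, and Xist, Ddx3y, Kdm6a and Kdm5c, which differ between the sexes, were among the 181, so embryo sex and date code cannot be told apart. C3, the complement factor of hepatocytes, stood at 467 CPM in TAF10KO and 326 CPM in WT on the first code and at 273 and 391 CPM on the second. Col3a1, a fibrillar collagen, stood at 547 and 484 CPM on the first code and 116 and 62.7 CPM on the second. Mesenchymal sums also differed between the date codes, as given above, and their part in these values was not tested.

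**Figure D5:**
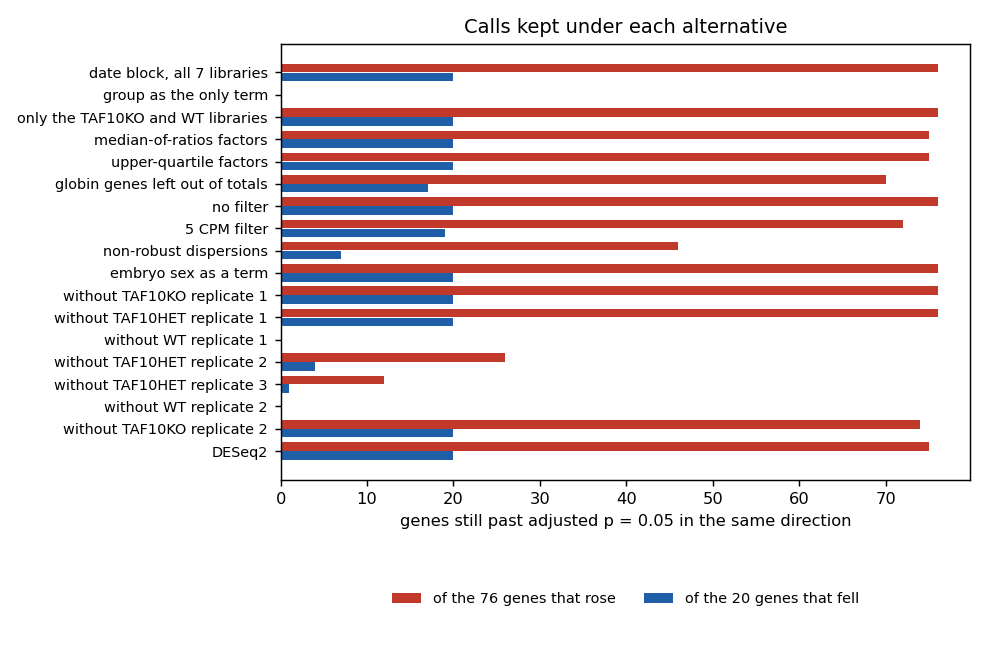
Number of the 76 genes that rose (red) and the 20 that fell (blue) that stayed past an adjusted p of 0.05 in the same direction under each alternative. The bars are at 0 with group as the only term and without either WT library, at 12 and 1 without TAF10HET replicate 3, and at 75 and 20 with DESeq2.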

How the data were processed

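Total RNA of 7 fetal livers was sequenced from TruSeq version 2 libraries, per the labels' protocols. The authors deposited raw counts of reads per Ensembl gene, as whole numbers with no scaling. TopHat2 2.0.8, DESeq2 and build mm10 are named in the submitters' processing notes. How reads were counted, with which annotation and strand setting, is not given in the sources used here, so reads of overlapping antisense genes cannot be told apart. Each file held 39017 genes and 5 summary lines, which were removed. Those lines held 6.81% to 10.1% of reads in no gene, 3.98% to 5.94% ambiguous and 14.1% to 22.2% aligned to several places. Gene counts ran from 18008391 to 43401474 per library. GENCODE M21 matched 37693 of the identifiers. No library was a copy of another by a chi-square comparison of counts.

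Tests used edgeR 4.0.16 in R 4.3.3 (filterByExpr by group, TMM factors, robust quasi-likelihood F test, two-sided) on all 7 libraries, with group and date code as terms and 3 residual degrees of freedom. P-values were adjusted over 15800 genes by the Benjamini-Hochberg method at a threshold of 0.05, and "rose" and "fell" mean past it. The SE is the log2 difference divided by the square root of F. CPM are scaled by TMM-adjusted library totals, without gene length, so levels are not compared between genes. Values on 1 date code are differences of log2 CPM with a prior count of 2. The biological coefficient of variation was 13.4% with the date code and 33.9% without it.

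Pairing came from the date code in the titles, which no label states to be a shared day. Deviations from the group means correlated at 0.40 to 0.74 in 8 pairs with the same code and at -0.74 to -0.40 in 8 pairs with different codes; with 2 libraries in a group these mirror each other by construction. Embryos under 10 CPM of Xist were taken as male.

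The comparison, the 50 gene lists and the design were chosen with earlier results of these data known. The naming rule took Taf10 and Epor, then the 12 largest rises and 12 largest falls among calls whose mean log2 CPM reached 1, and the 8 largest gains and 8 losses in CPM. It also took from each list up to 2 calls by adjusted p, or its most abundant gene where none was called. Any further gene was picked once its values were known. Alternatives were 2 other scalings, globin genes left out of totals, other filters, non-robust dispersions, embryo sex as a term, only the 4 libraries compared, DESeq2 1.42.0, no date term, and each library left out. The tests were checked on simulated data, in which the share of false calls exceeded the nominal rate of the threshold, so an adjusted p just under 0.05 is weaker than its value.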

Additional observations from a re-analysis of the deposited data

Results flagged for a closer look

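The interaction of TAF10KO with date code passed the threshold of edgeR in 181 genes, 4 of which were named by rule. With 1 liver of each genotype on each code, the spread came from 2 TAF10HET livers alone, and the only male of the 4 livers was TAF10KO replicate 2, so these values describe single livers. The interaction is the difference on the second code minus that on the first, on the log2 scale. It was -1.03 for C3, whose difference went from 0.52 on the first code to -0.52 on the second (adjusted p = 0.00414). Hba-x, the embryonic zeta globin, had -0.90, with -1.49 on the first code and -2.39 on the second (adjusted p = 0.00676). Col3a1, a fibrillar collagen, had 0.71 (0.0181), and Hoxa5, a homeobox gene at 1.25 to 5.43 CPM, had 2.04 (0.0458).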

How the results depend on the processing

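The 76 rises and 20 falls depended on the setting in number but not in direction: every one of them that was tested kept its sign in all 17 alternatives. They were picked by their difference in these same libraries, so a kept sign was likely in advance and adds no evidence for them. Without the replicate block (date code) the counts were 0 higher and 0 lower. They were 332 and 221 with only the TAF10KO and WT libraries, 1005 and 394 with no filter, 46 and 7 with non-robust dispersions, 1491 and 1234 with embryo sex as a term, and 324 and 265 with DESeq2, where 55.0% of calls were higher against 79.2%. The falls numbered 35 under median-of-ratios scaling, 36 under upper-quartile scaling and 35 with the 5 CPM filter. Leaving out 1 library gave 0 to 719 higher and 0 to 563 lower genes. These were 0 and 0 without either WT library, 719 and 563 without TAF10KO replicate 1, 295 and 234 without TAF10KO replicate 2, and 515 and 372, 26 and 5, and 12 and 1 without TAF10HET replicates 1, 2 and 3. The date interaction called 96 genes with median-of-ratios factors, 714 with no filter and 345 with the 5 CPM filter, against 181. It could not be fitted with a library of TAF10KO or WT left out and was run neither with DESeq2 nor without a TAF10HET library. C3 turned from 0.04 to -0.52 without TAF10KO replicate 1 (adjusted p = 0.0132 by edgeR) and stood at 0.49 without TAF10KO replicate 2 (0.0326). The causes of these changes in number were not tested. With 2 livers a group and 3 residual degrees of freedom, the number of livers limits the precision, and low-count genes such as Fgf23 rest on few reads.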

Other observations

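Genes that guard against oxidation and folding stress gave values in both directions. Of 20 antioxidant genes 0 were called by edgeR, against 0.608% of all genes. Gpx1, the glutathione peroxidase of red cells, stood at 1231 and 1842 CPM in TAF10KO and at 1662 and 2302 CPM in WT (log2 -0.38, adjusted p = 0.176). Hspa5, the main chaperone of the endoplasmic reticulum, stood at 849 and 694 CPM against 1044 and 910.5 CPM (-0.35, adjusted p = 0.134), and 12 of 20 genes of its list were lower on both date codes. Apolipoproteins and lipid carriers had a median log2 difference of -0.345 over 14 genes, with 12 lower on both codes and 0 called. Immediate-early genes had a median of 0.35 over 16, with Myc at 0.27 (adjusted p = 0.287).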
